A study of Mus musculus with 2 samples.

Results

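The 40 genes described here are switched on as cells copy their DNA and divide: 20 act in S phase and 20 in G2 and mitosis (G2/M). All 40 were found by gene symbol among the 27998 genes of the matrices, on 16 chromosomes, and none shares exon bases with another coding gene on its strand in GENCODE M21. They were followed through 2 single-cell libraries, read as UMIs near the 3′ end of transcripts. The cells were CD45+ (leukocytes), taken at day 14 from B16 melanomas growing in female C57BL/6 mice aged 5 weeks. One library came from Foxp3Cre-YFP mice, here the control, in which Cre and a yellow fluorescent protein are made from the Foxp3 gene of regulatory T cells. The other came from Nrp1L/LFoxp3Cre-YFP mice, which carry the same Cre allele and floxed Nrp1, so that Nrp1 is to be deleted in regulatory T cells; it is called Nrp1L/L below. The labels do not say how many mice each library pools. With 1 library per genotype, library and genotype cannot be told apart, and the intervals below cover counting error only.

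A dividing cell passes from G1 through S phase, when its DNA is copied from many origins of replication, to G2 and mitosis, when chromosomes are lined up and pulled apart. Genes of S phase are released by E2F transcription factors late in G1. Genes of G2 and mitosis are held down by the DREAM complex in resting cells and switched on later by B-Myb and FoxM1, through promoter elements known as the CCAAT box and the CHR (cell cycle genes homology region). In tumours, CD8 T cells that have met antigen divide fast, some tumour macrophages divide in place, and monocytes arriving from blood mostly do not.

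The control library kept 1302 cells and 12912194 UMIs, with a median of 8056.5 UMIs per cell, and the Nrp1L/L library kept 1275 cells and 8774789 UMIs, with a median of 5332. The libraries shared 3 barcodes. Nrp1 itself, the floxed gene, gave 43 control and 23 Nrp1L/L UMIs (49.1 and 31.7 in each 1000000 UMIs) in the other CD3 cells defined below with at least 2 UMIs of Foxp3, Il2ra or Ikzf2. Over all kept cells it gave 630 and 303 UMIs (48.8 and 34.5 in each 1000000), so the lower value was not limited to those cells. The labels do not say which exon is floxed, so a tag at the 3′ end may lie outside it and is no check of the deletion. S members made up 0.125% of control and 0.121% of Nrp1L/L UMIs, and G2/M members 0.125% and 0.118%. Cells were classed by counts of marker UMIs. CD8 T cells held at least 2 Cd3d, Cd3e or Cd3g UMIs and at least 2 of Cd8a or Cd8b1, other CD3 cells held the CD3 UMIs alone, and NK cells held 2 of Ncr1 or Klrb1c. Macrophages held at least 10 C1qa, C1qb or C1qc UMIs, and monocytes 10 Lyz2 UMIs and fewer of C1q. This gave 236 control and 393 Nrp1L/L CD8 T cells, 201 and 358 other CD3 cells, 81 and 186 NK cells, 269 and 87 macrophages, and 322 and 134 monocytes. Foxp3 was at 0 in CD8 T and NK cells of both libraries. Since the gates count raw UMIs, a shallow CD8 T cell can fall among other CD3 cells, where 9.45% of control and 8.66% of Nrp1L/L cells held 1 Cd8a or Cd8b1 UMI and no Cd4 UMI.

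The promoters of 4 members show the elements that the 2 sets carry. Mcm6 stands for S phase with E2F cores, Ccnb2 for G2/M with CCAAT boxes and CHRs, and Cdk1 for a G2/M member with all 3. Slbp is the member whose level was higher in the Nrp1L/L library in every class below. Each sequence is the RefSeq promoter of build GRCm38.p6, 250 bases before to 50 after the start, 5′ to 3′ on the gene's strand, with matched elements in capitals.
Mcm6: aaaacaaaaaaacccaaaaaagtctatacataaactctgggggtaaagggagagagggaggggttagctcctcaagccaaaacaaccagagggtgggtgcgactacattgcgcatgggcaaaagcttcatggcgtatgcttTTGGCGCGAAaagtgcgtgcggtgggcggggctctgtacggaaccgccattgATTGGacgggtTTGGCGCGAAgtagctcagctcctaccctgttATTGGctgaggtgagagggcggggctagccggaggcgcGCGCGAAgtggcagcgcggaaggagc
Slbp: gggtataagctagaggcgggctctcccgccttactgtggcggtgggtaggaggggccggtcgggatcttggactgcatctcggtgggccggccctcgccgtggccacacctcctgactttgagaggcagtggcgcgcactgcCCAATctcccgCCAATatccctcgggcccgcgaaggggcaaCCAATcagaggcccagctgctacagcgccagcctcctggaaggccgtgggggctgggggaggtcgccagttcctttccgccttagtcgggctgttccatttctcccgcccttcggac
Cdk1: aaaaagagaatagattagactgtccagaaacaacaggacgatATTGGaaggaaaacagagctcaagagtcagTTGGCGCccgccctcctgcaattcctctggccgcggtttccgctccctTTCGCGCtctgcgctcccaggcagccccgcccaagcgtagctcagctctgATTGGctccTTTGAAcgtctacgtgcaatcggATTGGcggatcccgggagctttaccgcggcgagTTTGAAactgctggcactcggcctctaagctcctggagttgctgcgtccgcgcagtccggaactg
Ccnb2: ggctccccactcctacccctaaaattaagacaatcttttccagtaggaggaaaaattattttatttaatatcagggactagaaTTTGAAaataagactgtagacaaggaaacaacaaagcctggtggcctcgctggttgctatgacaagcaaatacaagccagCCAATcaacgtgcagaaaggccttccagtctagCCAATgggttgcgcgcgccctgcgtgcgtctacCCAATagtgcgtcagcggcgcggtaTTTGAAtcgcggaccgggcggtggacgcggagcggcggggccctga

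All 4 genes lie on the minus strand, with windows at chr1:128359656-128359955 (Mcm6), chr5:33652525-33652824 (Slbp), chr10:69352863-69353162 (Cdk1) and chr9:70421505-70421804 (Ccnb2). Each element was searched on both strands by its exact letters. The E2F core was read as TTCCCGC or as TTGGCGC, and also as TTCGCGC or as TTGCCGC. The CCAAT box was read as CCAAT. The CHR was read as TTTGAA or as TTCGAA, which is its own reverse complement and was counted once. A promoter was on hand for 16 S and 17 G2/M members. An E2F core was found for 8 of 16 S members (50%) and 4 of 17 G2/M members (23.5%), against 10.9% of all genes with a promoter in the table. A CHR was found for 13 of 17 G2/M members (76.5%) and 3 of 16 S members (18.8%), against 21.7% of all genes. A CCAAT box was found for 15 of 17 G2/M members (88.2%) and 11 of 16 S members (68.8%), against 41.1%. All 13 G2/M members with a CHR also had a CCAAT box, a pair held by 8.61% of all genes. Of the E2F matches, 2 of 20 in S and 1 of 5 in G2/M promoters overlapped a CCAAT box. In Mcm6, 4 of the 5 cores form 2 pairs that overlap on opposite strands. The Slbp window holds 3 CCAAT boxes and neither of the other elements. A match is a description of the letters in this window, not of binding.

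A cell was counted as carrying a set of members when it held at least 2 of their UMIs after each cell had been thinned at random to 2500 UMIs, which sets all cells to 1 depth. Among CD8 T cells, 151 of 236 control cells (64.0%, 57.5 to 70.1) carried S genes, and 192 of 393 Nrp1L/L cells (48.9%, 43.8 to 53.9). G2/M genes were carried by 109 control cells (46.2%, 39.7 to 52.8) and 118 Nrp1L/L cells (30.0%, 25.5 to 34.8). Nrp1L/L minus control, the difference was -15.1 percentage points for S genes (-22.8 to -7.13) and -16.2 for G2/M genes (-23.9 to -8.34). Both intervals exclude 0. The difference lay in cells that carried both sets, 40.7% of control and 21.9% of Nrp1L/L CD8 T cells (-18.8, -26.2 to -11.3). Cells with S genes alone made up 23.3% and 27.0%, and those with G2/M genes alone 5.51% and 8.14%. The intervals of these differences span 0 (-3.46 to 10.4 and -1.72 to 6.49).

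Taken over all depths, other CD3 cells stood below CD8 T cells in both libraries. S genes were carried by 42.8% of control (35.8 to 49.9) and 33.8% of Nrp1L/L cells (28.9 to 39.0), and G2/M genes by 56 of 201 (27.9%) and 52 of 358 (14.5%). The differences were -8.99 points (-17.3 to -0.64) for S and -13.3 points (-20.7 to -6.33) for G2/M genes. Other CD3 cells were also shallower than CD8 T cells, with medians of 6005 against 10846 UMIs (control) and 4079.5 against 6578 (Nrp1L/L). At like depth their order for G2/M genes was mixed. From 6000 to 9000 UMIs other CD3 cells were higher, at 21.4% against 15.2% (control) and 20.5% against 15.0% (Nrp1L/L). From 9000 to 14000 UMIs they were lower, at 42.3% against 50.9% and 41.2% against 46.6%. In NK cells the intervals of both differences spanned 0: S genes were carried by 37.0% and 39.2% (2.21 points, -10.6 to 14.3) and G2/M genes by 16.0% and 14.5% (-1.53 points, -12.0 to 7.11). Among macrophages, G2/M genes were carried by 68 of 269 control cells (25.3%, 20.2 to 30.9) and 9 of 87 Nrp1L/L cells (10.3%, 4.84 to 18.7), a difference of -14.9 points (-22.3 to -5.46). Macrophages carrying S genes made up 25.7% and 17.2% (-8.41 points, -17.0 to 2.06). Monocytes had the lowest shares and serve as the reference class for low member counts: 6.52% and 6.72% carried S genes and 7.14% and 5.22% G2/M genes, at median depths of 7753.5 and 8019.5 UMIs. How much of the monocyte UMIs is free RNA was not tested; single monocytes held up to 106 S and 50 G2/M UMIs before thinning. All other classes lay above the monocyte shares, although the Nrp1L/L macrophage interval for G2/M genes reaches down to them.

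**Figure D1:**
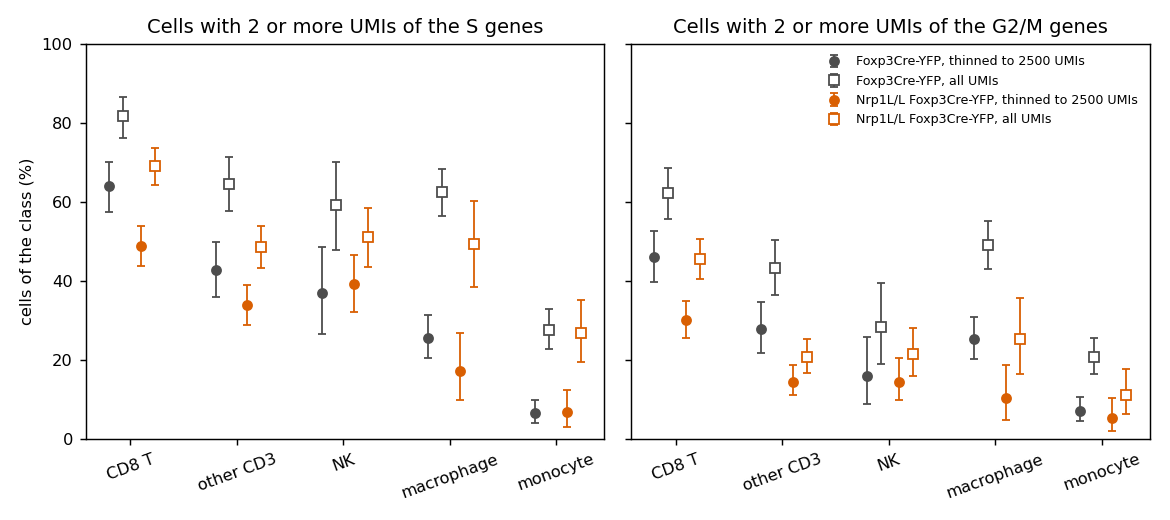
Percentage of cells (vertical axis) with 2 or more UMIs of the S genes (left) and the G2/M genes (right), by class, control in grey and Nrp1L/L in orange. Filled circles are after thinning to 2500 UMIs, open squares use all UMIs, and bars are 95% Clopper-Pearson intervals. Over all depths, CD8 T cells are highest (64.0% and 48.9% for S genes after thinning) and monocytes lowest.

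Without thinning, 81.8% of control and 69.2% of Nrp1L/L CD8 T cells held 2 or more S UMIs and 62.3% and 45.5% 2 or more G2/M UMIs. For macrophages the unthinned G2/M shares were 49.1% and 25.3%. Over all kept cells, S genes were carried by 30.0% of control and 33.7% of Nrp1L/L cells, and G2/M genes by 22.4% and 17.6%. These pooled shares depend on the mix of classes, since the control held 18.1% CD8 T cells and 20.7% macrophages, and the Nrp1L/L library 30.8% and 6.82%. At the control's class mix the Nrp1L/L shares would be 24.3% for S and 13.4% for G2/M genes. Of all G2/M UMIs, CD8 T cells held 49.1% (control) and 71.9% (Nrp1L/L), and macrophages 15.8% and 1.55%.

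Carrying cells were compared by how many UMIs they held. In carrying CD8 T cells, the thinned G2/M UMIs averaged 9.39 (control) and 9.36 (Nrp1L/L), with medians of 7 and 5. In carrying macrophages they averaged 6.04 in 68 control and 3.33 in 9 Nrp1L/L cells. For G2/M genes, CD8 T cells therefore differed in the share of carrying cells with a like mean per carrying cell, and macrophages in both. In CD8 T cells carrying S genes, the thinned S UMIs averaged 7.30 and 6.53, with medians of 6 and 5. A few cells held many of the molecules. The highest control CD8 T cell had 350 G2/M UMIs before thinning and the highest Nrp1L/L one 295, and in NK cells 1 cell held 102 of 435 control and 1 held 171 of 661 Nrp1L/L G2/M UMIs.

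**Figure D2:**
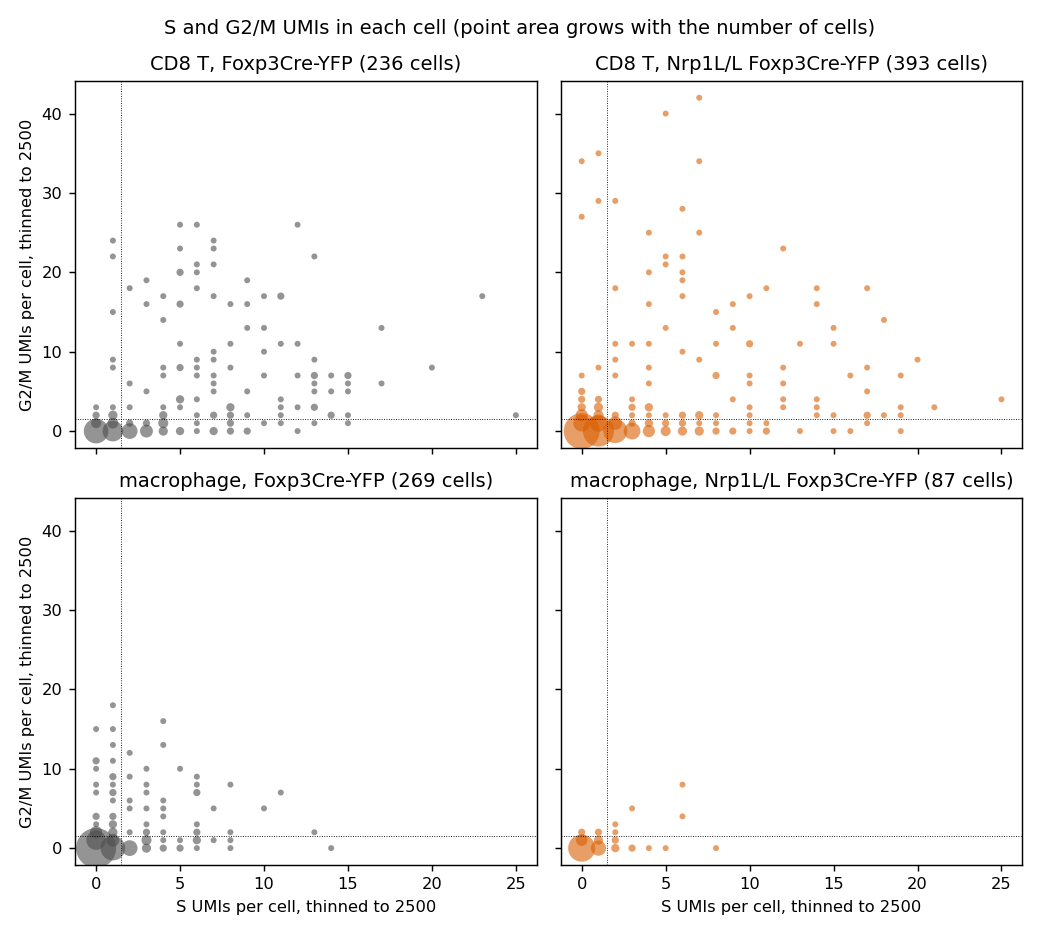
S UMIs (horizontal axis) and G2/M UMIs (vertical axis) of each CD8 T cell (top) and macrophage (bottom) after thinning to 2500 UMIs, control at left and Nrp1L/L at right. Point area grows with the number of cells at that position and dotted lines mark the limit of 2 UMIs. Few of the 87 Nrp1L/L macrophages lie above the line, 9 in all, against 68 of 269 in the control.

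CD8 T cells that carried G2/M genes were deeper than the rest. Their median depth was 16209 control and 13035 Nrp1L/L UMIs for cells carrying G2/M genes, and 6233 and 5900 for the rest. Monocytes went the other way for S genes, with median depths of 6200 and 6926 UMIs in carrying cells and 7792 and 8042 in the rest. Among CD8 T cells over 14000 UMIs, G2/M genes were carried by 71 of 82 control cells (86.6%) and 48 of 56 Nrp1L/L cells (85.7%). From 9000 to 14000 UMIs the shares were 50.9% and 46.6%, from 6000 to 9000 15.2% and 15.0%, from 4000 to 6000 7.84% and 15.1%, and under 4000 11.8% and 8.62%. The intervals of the libraries overlapped in each of the 5 bins, and the average over bins was a difference of 0.34 points for G2/M and -2.84 for S genes in CD8 T cells. In other CD3 cells it was -1.46 for G2/M and 4.94 for S genes. In macrophages the difference over bins was -11.3 for G2/M and -8.94 for S genes, close to the values of all macrophages together. G2/M genes were carried by 28.6% of 91 control and 10.3% of 29 Nrp1L/L macrophages from 9000 to 14000 UMIs, but by 34.7% of 75 and 38.5% of 13 over 14000. Cells over 14000 UMIs were 82 of 236 control and 56 of 393 Nrp1L/L CD8 T cells. Depth thus moves with both the members and the library, and its part in the CD8 T and other CD3 differences was not tested.

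**Figure D3:**
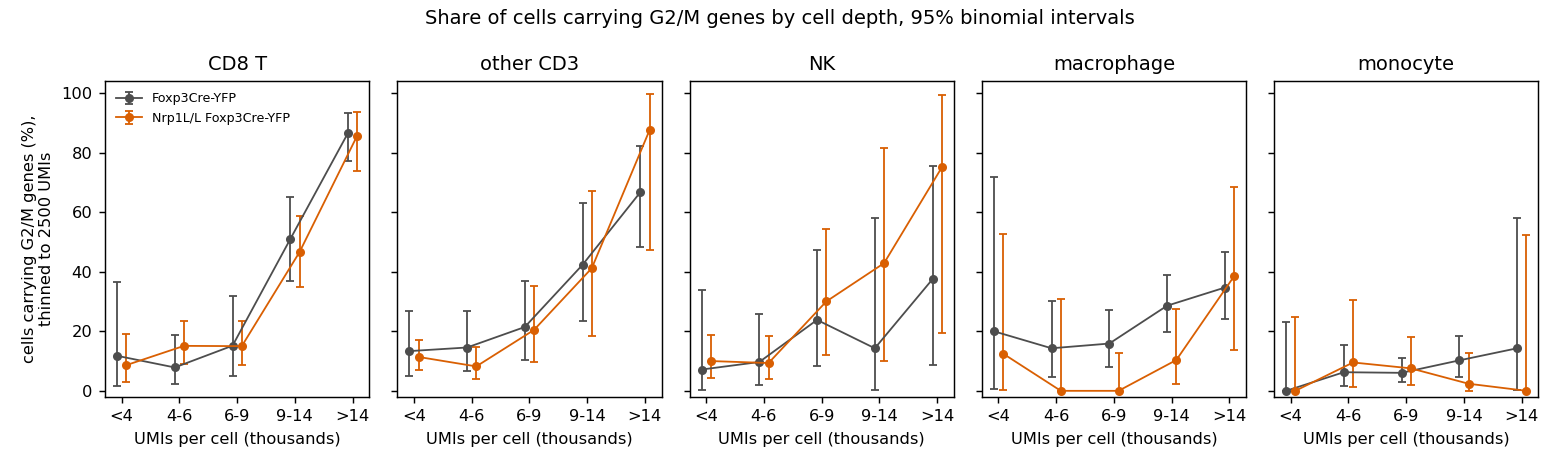
Percentage of cells carrying G2/M genes after thinning to 2500 UMIs (vertical axis) in 5 bins of UMIs per cell (horizontal axis), by class, control in grey and Nrp1L/L in orange, with 95% Clopper-Pearson intervals. In CD8 T cells the lines run together, to 86.6% and 85.7% over 14000 UMIs, while in macrophages the control lies above Nrp1L/L from 4000 to 14000 UMIs.

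Levels were then taken as UMIs summed over a class and scaled to 1000000 UMIs of that class (CPM), and compared as the log2 ratio of Nrp1L/L over control. In each pair of values the control comes first. In CD8 T cells the 20 S members summed to 2632 and 1980 CPM (-0.41, -0.46 to -0.36). The 20 G2/M members summed to 2670 and 2173 CPM (-0.30, -0.34 to -0.25). In other CD3 cells the sums were 1954 and 1187 CPM for S (log2 ratio -0.72, -0.80 to -0.64) and 1623 and 910 CPM for G2/M members (-0.83, -0.92 to -0.75). In macrophages S members summed to 697 and 321 CPM (-1.12, -1.31 to -0.94). Macrophage G2/M members summed to 817 and 192 CPM (-2.09, -2.33 to -1.86), a level 4.25-fold higher in the control. In NK cells the S sums were 1340 and 1064 CPM (-0.33, -0.47 to -0.20) and the G2/M sums 708 and 718 CPM (0.02, -0.16 to 0.20). Monocytes were lowest, at 191 and 145 CPM for S and 145 and 84.6 CPM for G2/M members. These sums weight deep cells more. With every cell thinned to the same depth, the CD8 T ratios were -0.50 for S and -0.59 for G2/M members and the NK ratios -0.17 and 0.21, while macrophages gave -0.74 and -1.77. With classes gated on thinned UMIs, the CD8 T G2/M ratio was -0.11.

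A member was counted as lower or higher past a 1.5-fold difference between the libraries. In CD8 T cells all 40 members were measured; 5 S and 3 G2/M members were lower past 1.5-fold and 1 S member was higher, where 13.6% of all 8903 measured genes were lower and 16.7% higher. The 3 of 20 G2/M members that were lower are close to that background, and the 5 of 20 S members are above it. The share that was higher is below the 16.7% in both sets. Further, 18 of 20 S and all 20 G2/M members lay below 0. Their medians were -0.39 for S and -0.30 for G2/M against 0.0019 for all genes. In other CD3 cells, 15 of 19 S and 15 of 20 G2/M members were lower and none was higher, against 16% and 17.9% of all measured genes. In macrophages, 15 of 18 S and all 19 measured G2/M members were lower and none was higher, against 24.7% and 14.3%. Their medians were -1.17 and -2.31 and that of all genes -0.12. In NK cells, 7 of 18 S and 2 of 11 G2/M members were lower, against 12.7% of all genes, and 1 and 2 were higher, against 23.6%. In monocytes, 7 of 12 S and 3 of 5 G2/M members were lower, against 18.1%, and 1 of each was higher, against 16.8%. The macrophage sums were 3143036 control and 832926 Nrp1L/L UMIs, and the monocyte sums 2569229 and 1075176. In these 2 classes a member with few UMIs passed the limit of 20 UMIs mainly through the control. That favours lower over higher calls, also among all genes. The NK sums were 614319 control and 920786 Nrp1L/L UMIs, so there the same limit favours higher over lower calls.

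**Figure D4:**
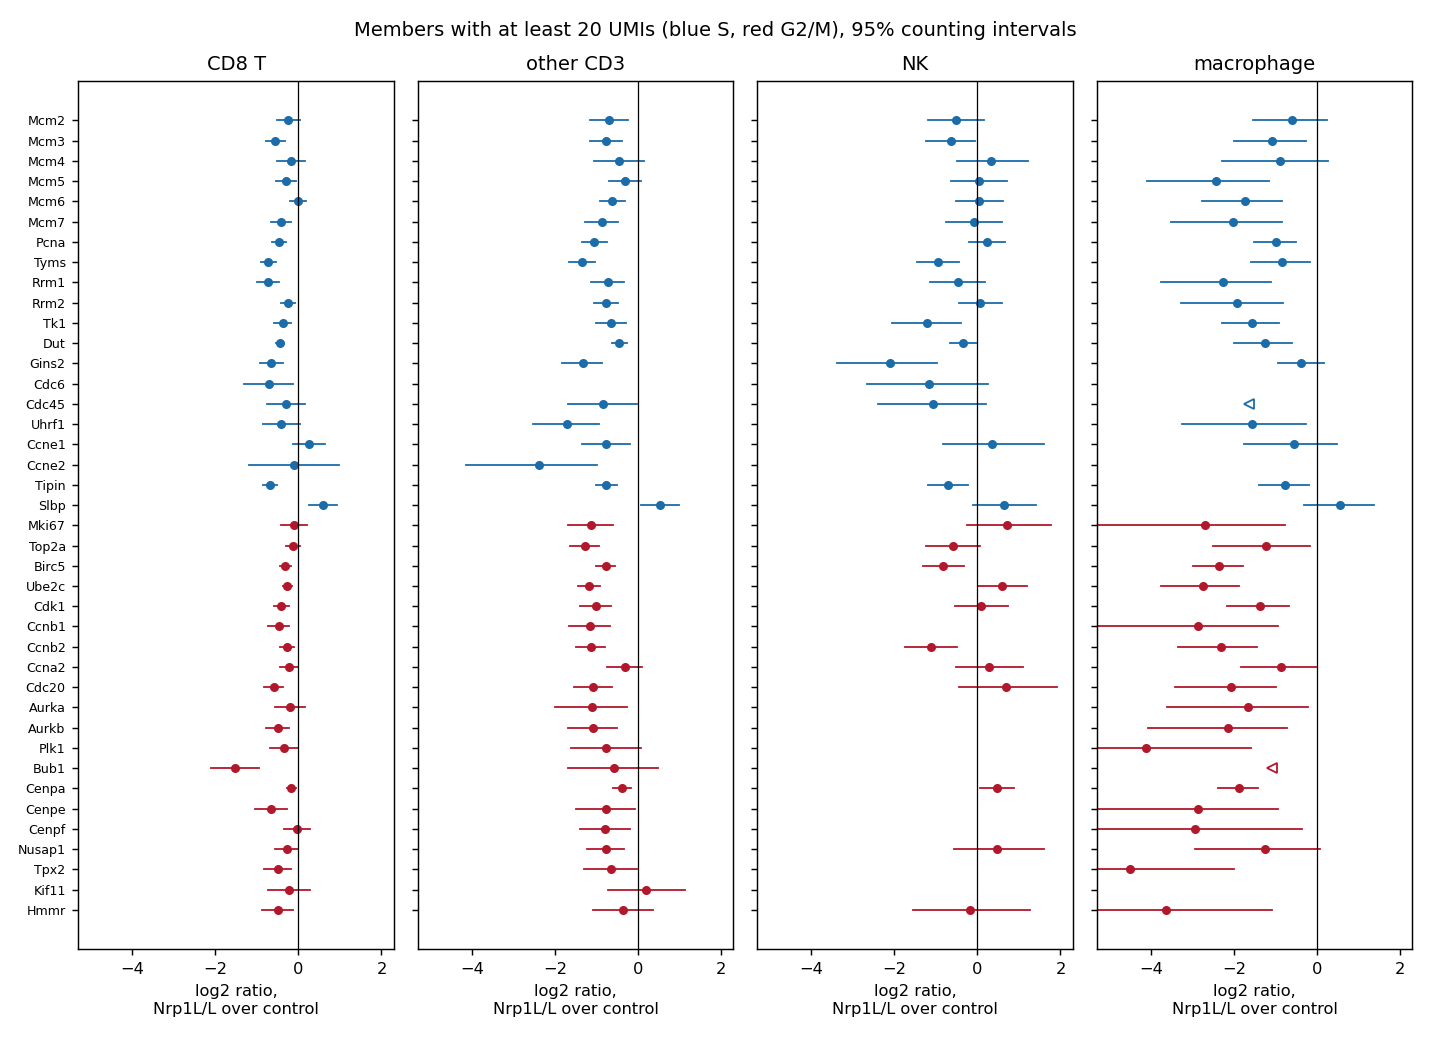
Log2 ratio of Nrp1L/L over control (horizontal axis) of each member with at least 20 UMIs in a class, S members in blue and G2/M members in red, with 95% counting intervals cut at the edges of the panels; open triangles are bounds for a gene at 0 in the Nrp1L/L library. Macrophages show the widest shift, down to -4.51 for Tpx2, and Slbp lies above 0 in each of the 4 classes drawn.

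Replication begins with the MCM helicase, whose 6 subunits unwind DNA as one ring. In CD8 T cells Mcm6 was at 135 and 134 CPM (log2 ratio -0.01, -0.21 to 0.19), a difference within counting error. The other 5 subunits had log2 ratios from -0.56 (Mcm3) to -0.18 (Mcm4). In macrophages Mcm6 was at 43.6 and 13.2 CPM (-1.72, -2.76 to -0.84), and the lowest of the ring was Mcm5 at -2.43. In other CD3 cells Mcm6 was at 132 and 86.1 CPM (-0.62, -0.92 to -0.31).

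Pcna is the sliding clamp that holds DNA polymerase on its template, and Tipin steadies the fork. Pcna was at 206 and 148 CPM in CD8 T cells (-0.47, -0.65 to -0.30) and at 161 and 77.7 CPM in other CD3 cells (-1.05, -1.36 to -0.75). In NK cells it was at 120 and 141 CPM, with an interval of -0.19 to 0.66 around 0.23. In macrophages it was at 93.2 and 46.8 CPM (-0.99, -1.51 to -0.51). The thinned share of macrophages with a Pcna UMI was 14.9% in both libraries. That share comes from 1 thinning draw with equal weight per cell, whereas the CPM weights deep cells more, so they cannot be set against each other. Tipin was at 243 and 151 CPM in CD8 T cells (-0.69, -0.85 to -0.52), 192 and 114 in other CD3 cells (-0.76, -1.02 to -0.50), and 57.3 and 33.6 in macrophages (-0.77, -1.40 to -0.19). Its ratio was thus near the same in these 3 classes and in NK cells (-0.72).

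Nucleotide supply is the work of Dut, which clears dUTP, Tyms, which makes thymidylate, Rrm1 and Rrm2, the subunits of ribonucleotide reductase, and Tk1, which salvages thymidine. Dut gave most S UMIs, 26.6% of the list in control and 25.9% in Nrp1L/L CD8 T cells. It was at 699 and 513 CPM there (-0.45, -0.54 to -0.35), 374 and 275 in other CD3 cells (-0.44, -0.62 to -0.27), 247 and 194 in NK cells (-0.35, -0.67 to -0.03), and 60.5 and 25.2 in macrophages (-1.26, -1.99 to -0.61). In monocytes it had 54 and 23 UMIs, with an interval of -0.75 to 0.75 around 0.03. Tyms was lower in all 5 classes: 198 and 120 CPM in CD8 T cells (-0.72, -0.91 to -0.54), 174 and 68.1 in other CD3 cells (-1.35, -1.67 to -1.04), 124 and 64.1 in NK cells (-0.95, -1.46 to -0.44), 43.0 and 24.0 in macrophages (-0.84, -1.60 to -0.16), and 15.6 and 4.65 in monocytes (-1.74, -3.44 to -0.40). Rrm2 differed less in CD8 T cells, at 191 and 160 CPM (-0.25, -0.42 to -0.08), than in other CD3 cells, at 164 and 96.2 (-0.77, -1.05 to -0.49), and intervals did not overlap. Among members with at least 50 UMIs, Tk1 was the lowest in NK cells, at 55.4 and 23.9 CPM (-1.21, -2.06 to -0.40). Uhrf1, which brings the maintenance DNA methyltransferase to new DNA, was the lowest of these in other CD3 cells, at 34.8 and 10.7 CPM (-1.70, -2.53 to -0.93).

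Slbp binds the stem-loop of replication-dependent histone mRNAs. It had 119 and 206 UMIs in CD8 T cells (log2 ratio of CPM 0.59, 0.26 to 0.93). Its level was 40.7 and 58.5 CPM in other CD3 cells (0.53, 0.07 to 0.99), 35.8 and 55.4 in NK cells (0.63, -0.12 to 1.42), 14.6 and 21.6 in macrophages (0.56, -0.31 to 1.38), and 11.3 and 16.7 in monocytes (0.57, -0.37 to 1.47). It was higher in the Nrp1L/L library in all 5 classes by a like amount, and the interval excluded 0 in CD8 T and other CD3 cells. After thinning, Slbp was found in 9.40% of control CD8 T cells with at least 2 UMIs of other S members and 3.45% of those without, whereas Tyms was found in 30.4% and 3.41%.

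Entry into mitosis turns on Cdk1 and its cyclins. In CD8 T cells Cdk1 was at 172 and 130 CPM (-0.41, -0.60 to -0.22) and Ccnb2, cyclin B2, at 206 and 171 (-0.27, -0.43 to -0.10). In other CD3 cells they were at 106 and 52.3 (-1.02, -1.40 to -0.65) and 131 and 59.6 (-1.13, -1.48 to -0.79). In macrophages they were at 56.0 and 21.6 (-1.37, -2.16 to -0.67) and 65.5 and 13.2 (-2.31, -3.34 to -1.44). In NK cells Cdk1 was at 57.0 and 60.8 CPM, alike, while Ccnb2 was at 91.2 and 42.4 (-1.11, -1.73 to -0.49).

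Top2a untangles sister chromatids, and Birc5 (survivin) and Aurkb are parts of the chromosomal passenger complex. Top2a was at 176 and 161 CPM in CD8 T cells (-0.13, -0.30 to 0.05), within counting error, against 134 and 55.2 in other CD3 cells (-1.28, -1.64 to -0.93). It was at 22.6 and 9.60 in macrophages (-1.23, -2.50 to -0.18). Birc5 was at 354 and 284 CPM in CD8 T cells (-0.31, -0.44 to -0.19), 225 and 131 in other CD3 cells (-0.78, -1.02 to -0.54), 129 and 72.8 in NK cells (-0.82, -1.31 to -0.33) and 159 and 31.2 in macrophages (-2.35, -2.98 to -1.78). The macrophage values of Birc5 rest on 500 and 26 UMIs.

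Spindle building and its checkpoint include Tpx2, which activates Aurora A, and the kinase Bub1. Bub1 was the lowest member in CD8 T cells, with 92 and 37 UMIs, at 30.9 and 10.8 CPM (-1.52, -2.11 to -0.95). Tpx2 was the lowest in macrophages, with 86 and 1 UMIs (-4.51, -9.83 to -1.99). The mitotic kinase Plk1 had 65 and 1 macrophage UMIs (-4.11, -9.43 to -1.58) and Hmmr, a spindle protein, 47 and 1 (-3.64, -8.97 to -1.09). Bub1 had 24 and 0 there, which with a floor of 3 counts bounds its log2 ratio at -1.08. These values rest on single molecules in the Nrp1L/L library. Mki67, a marker widely used for dividing cells, had 49 and 2 UMIs in macrophages (-2.70, -5.78 to -0.77) and was at 59.1 and 54.9 CPM in CD8 T cells (-0.11, -0.41 to 0.20).

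Cenpa is the histone H3 variant of the centromere, and Ube2c the ubiquitin-conjugating enzyme of the anaphase-promoting complex. Cenpa was at 444 and 393 CPM in CD8 T cells (-0.17, -0.29 to -0.06), 255 and 195 in other CD3 cells (-0.38, -0.59 to -0.18), 122 and 168 in NK cells (0.46, 0.06 to 0.88), 177 and 48.0 in macrophages (-1.88, -2.38 to -1.42), and 81.0 and 27.9 in monocytes (-1.54, -2.14 to -0.98). It followed the other G2/M members less closely than most. In control CD8 T cells it was found after thinning in 68.1% of cells with at least 2 UMIs of other G2/M members and in 18.6% of the rest, against 40.6% and 2.31% for Ube2c. In control monocytes Cenpa alone made up 55.8% of the G2/M UMIs, so the control monocyte sum is mainly this gene. In Nrp1L/L monocytes it was the smaller part, at 27.9 CPM of a G2/M sum of 84.6. Ube2c was at 406 and 338 CPM in CD8 T cells (-0.26, -0.38 to -0.15), 216 and 95.7 in other CD3 cells (-1.18, -1.45 to -0.91), 60.2 and 90.1 in NK cells (0.58, 0.01 to 1.18) and 87.8 and 13.2 in macrophages (-2.73, -3.75 to -1.87). With classes gated on thinned UMIs, the CD8 T values of Cenpa and Ube2c were 0.0032 and 0.0011 and the NK value of Ube2c was -0.16, so these directions do not hold.

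The rest of the cell cycle was read from 10 further lists. Of 31 genes for origin licensing and the replication fork, 4 were lower past 1.5-fold and none higher in CD8 T cells, 15 of 26 measured genes were lower in other CD3 cells, and 11 of 27 were lower and 1 higher in macrophages. The shares of all measured genes that were lower, given above, were 13.6% in CD8 T cells, 16% in other CD3 cells and 24.7% in macrophages, so that the CD8 T count is at its background. Rpa2, a subunit of the single-strand binding protein, was at 184 and 232 CPM in CD8 T cells (0.34, 0.18 to 0.50). In macrophages Gmnn, the licensing inhibitor geminin, was at 74.8 and 51.6 (-0.53, -1.04 to -0.06). Of the kinetochore and checkpoint list, 3 of 16 were lower and 1 higher in CD8 T cells, while 8 of 14 were lower in other CD3 cells and 9 of 10 in macrophages. Its most abundant gene, Bub3, was at 232 and 220 CPM in CD8 T cells and at 145 and 96.0 in macrophages (-0.60, -0.96 to -0.25). Of the anaphase-promoting complex and mitotic entry list, Cks1b, a Cdk-binding protein, was at 375 and 243 CPM in CD8 T cells (-0.63, -0.76 to -0.49) and at 141 and 44.4 in macrophages (-1.67, -2.19 to -1.18). For spindle motors and cytokinesis, 2 of 14 genes were lower in CD8 T cells with a median of 0.03, near the background of 13.6%, and 6 of 9 in macrophages with a median of -1.08, where the background is 24.7%. Racgap1, needed for the cleavage furrow, was at 89.3 and 93.5 CPM in CD8 T cells and had 79 and 1 UMIs in macrophages (-4.39, -9.71 to -1.87).

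Chromatin and tubulin genes are also used outside division. Hmgb2, a chromatin protein, was at 1507 and 1133 CPM in CD8 T cells (-0.41, -0.47 to -0.35), and Tuba1b, an alpha-tubulin, at 1282 and 912 (-0.49, -0.56 to -0.42). In macrophages the most abundant chromatin gene, H2afz, was at 377 and 289 CPM (-0.38, -0.59 to -0.18) and Tuba1b at 1047 and 810 (-0.37, -0.49 to -0.25). These single macrophage ratios were smaller than those of most G2/M members, but they do not stand for their lists. Of the macrophage chromatin list, 8 of 11 measured genes were lower past 1.5-fold and 0 higher, with a median of -1.02. In the tubulin list 3 of 6 were lower and 0 higher, with a median of -0.48. Of all measured genes in macrophages, 24.7% were lower and 14.3% higher. E2f4, the E2F of the repressive complex, was at 120 and 107 CPM in CD8 T cells (-0.17, -0.38 to 0.05) and at 44.2 and 36.0 in macrophages (-0.30, -0.92 to 0.28), within counting error in both.

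Genes of G1 control were mixed, and most of the measured quiescence genes were higher past 1.5-fold in the lymphoid classes of the Nrp1L/L library. Cdk4, which pairs with D cyclins, was at 240 and 170 CPM in CD8 T cells (-0.50, -0.66 to -0.34). In macrophages Cdkn1a, the inhibitor p21, was at 601 and 801 CPM (0.41, 0.28 to 0.54). There 6 of 13 measured genes of the G1 list were higher and 4 lower, against 14.3% and 24.7% of all measured genes. Of the 9 quiescence genes, 6 were higher past 1.5-fold in CD8 T cells, 8 in other CD3 cells and 7 of 8 measured in NK cells, against 16.7%, 17.9% and 23.6% of all measured genes. None was lower past 1.5-fold, and Foxp1 lay below 0 in NK cells (-0.24, -0.79 to 0.31). Their medians were 0.87, 1.10 and 1.24, against 0.0019, 0.011 and 0.094 for all genes. Klf2, which keeps T cells quiescent and circulating, was at 275 and 322 CPM in CD8 T cells (0.23, 0.10 to 0.36) and at 714 and 1192 in macrophages (0.74, 0.63 to 0.85). Among macrophages 2 of 8 quiescence genes were higher and 1 lower, against the same 14.3% and 24.7%. In NK cells the intervals of the share differences for S and G2/M genes spanned 0, as given above.

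**Figure D5:**
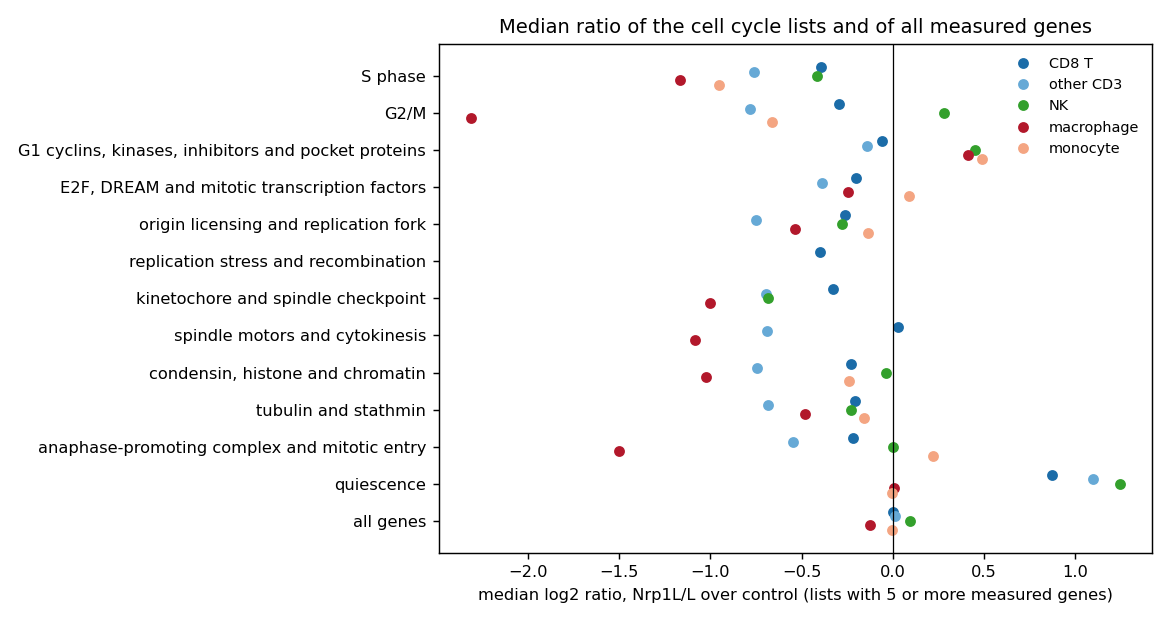
Median log2 ratio of Nrp1L/L over control (horizontal axis) for each cell cycle list and for all measured genes, by class (colour), where at least 5 genes of the list were measured. The G2/M median is lowest in macrophages (-2.31), and the quiescence medians lie at 0.87, 1.10 and 1.24 in CD8 T, other CD3 and NK cells.

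Other CD3 cells were split further, a choice made after their values were seen. G2/M genes were carried by 38.6% of 57 control and 26.5% of 98 Nrp1L/L cells with a Cd4 UMI, at median depths of 8108 and 4770.5 UMIs. Foxp3, Il2ra and Ikzf2 are markers of regulatory T cells, and at least 2 of their UMIs were found in 92 control and 126 Nrp1L/L cells. Foxp3 gave 3 and 5 UMIs there, so this subset rests on Il2ra and Ikzf2. Any UMI of the 3 markers, a lower limit than 2, was also held by 38.6% of control and 16.3% of Nrp1L/L CD8 T cells. The subset is therefore not a set of cells in which Cre is known to act. In it, G2/M genes were carried by 34.8% of 92 (25.1 to 45.4) and 18.3% of 126 cells (11.9 to 26.1). S genes were carried there by 52.2% (41.5 to 62.7) and 40.5% (31.8 to 49.6). In cells with neither a Cd4 nor a CD8 UMI G2/M genes were carried by 25 of 125 and 22 of 229 cells. In cells with 1 CD8 UMI and no Cd4 UMI, which may be shallow CD8 T cells, G2/M genes were carried by 9 of 19 and 4 of 31. Their median depths were 6005 and 4301 UMIs. The control share was the higher one in each subset, and so was the control depth.

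Markers of other cells were set beside these results. The 6 macrophage markers summed to 88.3 and 44.1 CPM in CD8 T cells, 93.7 and 46.7 in other CD3 cells, and 109 and 58.6 in NK cells. At least 4 of the 6 were detected in each class, with Mrc1 or Adgre1 at 0 in some, and all 3 lymphoid sums moved with the library, and their part in the member differences was not tested. The 7 melanoma markers were alike in macrophages, at 45.2 and 45.6 CPM, with 6 of 7 detected and Gpr143 at 0 in both. A melanoma UMI was found in 12 of 68 control macrophages carrying G2/M genes (17.6%) and 47 of 201 of the rest (23.4%). Among Nrp1L/L macrophages the order was the other way, with 4 of 9 carrying cells (44.4%) and 13 of 78 of the rest (16.7%). With cells holding a melanoma UMI left out, which removes those 4 of 9 carrying cells, the macrophage G2/M difference was -19.5 points. No class was given to 175 control and 101 Nrp1L/L cells. Of these, 2 control cells held at least 10 melanoma UMIs, and they held 925 of the 1713 G2/M UMIs of that group; 1 of them, the deepest barcode of the series at 84144 UMIs, held 803 G2/M, 140 S and 726 melanoma UMIs. Keeping the barcodes called as doublets gave G2/M differences of -16.6 points in CD8 T cells and -14.9 in macrophages.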

How the data were processed

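The deposited matrices hold UMI counts (tags that count each captured transcript once) per gene and barcode, made by the authors with Cell Ranger 1.3 on mm10, per the submitters' processing notes. Doublets were scored per library with Scrublet in scanpy 1.11.5 at an expected 2%; its own threshold was kept where it called 0.5% to 10% of barcodes, and otherwise the top 2% were left out. This left out 8 control barcodes by its own threshold and 26 Nrp1L/L barcodes as the top 2%, where its own threshold had called 3. The rule applied thus differed between the libraries. With all barcodes kept, the Nrp1L/L library held 402 CD8 T and 369 other CD3 cells, and the control again 236 and 201.

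Shares were taken after drawing 2500 UMIs at random from each cell; the shallowest cell held 2659, so none was lost. CPM are UMIs in each 1000000 of a class sum. Intervals are at 95%: Clopper-Pearson for shares, Newcombe for share differences, exact Poisson for CPM, conditional binomial for log2 ratios. They cover counting error only, and 1 library per genotype allows no test. The CPM and log2 ratio intervals take each UMI as a separate draw, so they do not cover the spread between cells. A gene was measured in a class with 20 UMIs over both libraries and called past 1.5-fold; 3 counts served as the floor against 0. Functions were checked on simulated data with Poisson counts per class, which hold no spread between cells. edgeR 4.0.16 gave the TMM factors of 1 alternative.

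The members and lists were chosen with earlier results of these data known. Values per library are printed for the 6 S and 6 G2/M members with the most UMIs, the highest and lowest member of each class with at least 50 UMIs, and the most abundant gene of each other list in CD8 T cells and macrophages; other genes were chosen after their values were seen. The most abundant gene of 1 list is not reported here. Trac, Trbc1, Trbc2 and Knl1 of the lists were not analysed here.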

Additional observations from a re-analysis of the deposited data

Results flagged for a closer look

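Mcm3 and Ccnb2 went one way in monocytes and the other way in 3 other classes, each past 1.5-fold with a counting interval that excluded 0; the difference between classes was not tested. The log2 ratio of Mcm3 was 1.26 in monocytes, against -0.77 in other CD3 cells, -0.64 in NK cells and -1.07 in macrophages. That of Ccnb2 was 1.60 in monocytes, against -1.13 in other CD3 cells, -1.11 in NK cells and -2.31 in macrophages. Both were also below 0 in CD8 T cells with an interval that excluded 0, but not past 1.5-fold: -0.56 (-0.78 to -0.33) for Mcm3 and -0.27 (-0.43 to -0.10) for Ccnb2. Both monocyte values rest on few molecules: 1 Nrp1L/L monocyte held 12 of the 18 Mcm3 UMIs and 1 held 9 of the 14 Ccnb2 UMIs. Without that cell the log2 ratio was -0.32 (-1.94 to 1.07) for Mcm3 and 0.13 (-1.75 to 1.77) for Ccnb2.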

How the results depend on the processing

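Share differences (Nrp1L/L minus control, in percentage points) that moved outside their interval were as follows. Averaged over depth bins, that in CD8 T cells was -2.84 for S and 0.34 for G2/M genes, and that in other CD3 cells 4.94 for S and -1.46 for G2/M genes. Averaged over depth bins with the share expected over all thinning draws, chosen after seeing the data, these 4 values were -5.20, 0.90, 1.15 and -1.69. Another thinning seed gave -23.4 for S genes in CD8 T cells, where the expected share gives -17.7. Thinning to 1000 UMIs gave -19.9 for S genes in other CD3 cells. With no thinning G2/M values were -22.6 in other CD3 cells, -23.8 in macrophages and -9.61 in monocytes, and with 1 UMI as the limit -14.6 in monocytes.

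The log2 ratio of summed UMIs, with every cell thinned to 2500 UMIs and so given equal weight, was -0.50 (S) and -0.59 (G2/M) in CD8 T cells, -1.08 (G2/M) in other CD3 cells, -0.17 (S) and 0.21 (G2/M) in NK cells, -0.74 (S) and -1.77 (G2/M) in macrophages and -0.078 (S) in monocytes. With gates on thinned UMIs it was -0.11 (G2/M) in CD8 T cells, -0.63 (S) and -1.06 (G2/M) in other CD3 cells and -0.14 (S) in NK cells. Without cells holding a melanoma UMI it was -0.23 (G2/M) in CD8 T cells.

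Among single genes and medians, thinning turned the median of G2/M members in NK cells to -0.85 and that of S members in monocytes to 0.12. Gates on thinned UMIs turned Cenpa and Ube2c in CD8 T cells to 0.0032 and 0.0011, and Ube2c in NK cells to -0.16; leaving out 1 cell turned Mcm3 in monocytes to -0.32. The cause was not tested. No paired analysis was possible because there is 1 library per genotype. Few member UMIs limit NK cells and monocytes most, where 11 and 5 of 20 G2/M members were measured; member levels were lowest in monocytes.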
